A study of Mus musculus with 6 samples.

Results

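The 48 genes described here are the core regulators of the mouse cell cycle: the A-, B-, D- and E-type cyclins, their cyclin-dependent kinases (CDKs) and CDK inhibitors, the pocket proteins, the E2F transcription factors, the MCM helicase and its licensing factors, the CDC25 phosphatases with Wee1, the mitotic regulators, and the proliferation-associated genes Mki67 and Top2a. Of these, 47 were measured by 103 probe sets that carry a single symbol, among 18193 genes in all, while Ccnb1 is not analysed here. One probe set stands for each gene, that of highest mean over the 6 arrays (called the brightest below). RNA came from E14TG2a, a mouse embryonic stem (ES) cell line. The 3 differentiating samples were grown for 3 days without leukaemia inhibitory factor (LIF, the cytokine that holds mouse ES cells undifferentiated) and sorted as positive for 5T4, a cell surface glycoprotein of early differentiation. The 3 undifferentiated samples were kept in LIF (1000 units per ml) and sorted for the lack of 5T4. The effects of LIF withdrawal and of the 5T4 sort cannot be told apart, both groups come from a single line, and nothing says that the numbered replicates were separate cultures, so p-values measure only the spread between these samples, which may be technical. In these bulk samples, fewer cells in a phase of the cycle and less RNA per cell cannot be told apart either.

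As background, a cell leaves G1 phase when cyclin-CDK complexes phosphorylate the pocket proteins, which otherwise hold E2F factors on the promoters of replication genes in a repressed state. Cyclin D with Cdk4 or Cdk6 starts this step and cyclin E with Cdk2 completes it, while the CDK inhibitors oppose both. Mouse ES cells are known for a very short G1 phase, with little cyclin D-dependent kinase activity, pocket proteins kept phosphorylated and cyclin E-Cdk2 active through the cycle, and G1 lengthens as the cells differentiate. Genes for the G2 phase and mitosis form a separate wave, and many of their promoters carry a cell cycle homology region (CHR) and CCAAT boxes, in contrast to the E2F sites of replication genes.

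All values are log2 signals after RMA (robust multi-array average, a background correction and quantile normalization followed by a summary over the probes of a set), and differences are differentiating minus undifferentiated. Signals of different probe sets are not compared with each other, since probes differ in brightness. The 6 array medians lay between 5.54 and 5.65. A probe set passed the test at an adjusted p under 0.1 from limma (Benjamini-Hochberg over 45037 probe sets), which is the false discovery rate of the study's methods. The methods also set a log2 fold change of 1, which was not required here. The labels were borne out by marker genes: of 7 markers of undifferentiated ES cells 4 passed as lower, with Klf4 down 18.4-fold, and of 5 primed epiblast markers 2 passed as higher, with Fgf5 up 3.78-fold. By the marker means, replicate 1 was the least changed differentiating sample. The 7 ES cell markers averaged 10.06, 9.2 and 8.66 in differentiating replicates 1 to 3, against 11.45, 11.14 and 11.71. The 5 primed markers averaged 8.97, 9.56 and 9.59 against 7.69, 7.88 and 8.26. Pou5f1 and Nanog went the other way, lowest in that replicate. None of the fibroblast, extraembryonic endoderm, blood and endothelial or stress markers passed, while 3 of them were higher and 2 lower at an unadjusted p under 0.05. The summed linear signal of the 8 fibroblast markers ran from 546 to 1180 in the differentiating and from 409 to 803 in the undifferentiated samples, with 3 of the 8 higher without overlap, and their part in the results below was not tested.

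Undifferentiated replicate 1 stood apart for the cell cycle genes. It lay farthest from its group mean for 33 of the 47 members (70.2%, against 49.5% of all genes), with a median distance of 0.27 log2 units against 0.15 for all genes. It gave the lowest of the 6 values for 16 members and the highest for 18, so that the value without it is given below for each member whose difference at the brightest probe set it moved by over 1.5 times. In the other group, differentiating replicate 1 lay farthest from the mean for 25 members (53.2%, against 56.7% of all genes).

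The promoters of the members differ in their letters, and those of 7 genes are printed to show this. They were taken from RefSeq (assembly GRCm38.p6), where 35 members have 42 windows that run from 250 bases before to 50 bases after the transcription start. Each line gives the 160 bases that end just before the start, 5′ to 3′ on the strand of the gene. Capitals mark the E2F letters (TTTCCCGC, TTTGGCGC, TTTCGCGC or TTTGCCGC) and the CHR letters (TTTGAA), on either strand. Ccne1 is shown as the member with the probe set that passed, Mcm5 and Mcm6 as helicase subunits, Cdk1 for holding both kinds of letters, and Cdc20, Top2a and Mki67 for the mitotic wave.
Ccne1, chr7:38107491-38107650, minus strand: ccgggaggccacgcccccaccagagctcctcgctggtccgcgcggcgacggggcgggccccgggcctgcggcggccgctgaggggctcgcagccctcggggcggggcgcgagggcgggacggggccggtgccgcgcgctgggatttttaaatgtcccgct
Mcm5, chr8:75109349-75109508, plus strand: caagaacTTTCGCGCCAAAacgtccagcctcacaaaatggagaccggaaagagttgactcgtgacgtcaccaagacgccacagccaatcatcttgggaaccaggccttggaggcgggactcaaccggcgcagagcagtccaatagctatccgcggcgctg
Mcm6, chr1:128359706-128359865, minus strand: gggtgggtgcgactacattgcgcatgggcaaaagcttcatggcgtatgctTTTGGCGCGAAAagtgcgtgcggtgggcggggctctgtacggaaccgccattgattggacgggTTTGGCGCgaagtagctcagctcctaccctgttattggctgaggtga
Cdk1, chr10:69352913-69353072, minus strand: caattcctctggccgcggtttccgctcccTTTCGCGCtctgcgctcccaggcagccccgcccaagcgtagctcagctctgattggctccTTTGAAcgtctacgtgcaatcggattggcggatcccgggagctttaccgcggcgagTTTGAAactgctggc
Cdc20, chr4:118437344-118437503, minus strand: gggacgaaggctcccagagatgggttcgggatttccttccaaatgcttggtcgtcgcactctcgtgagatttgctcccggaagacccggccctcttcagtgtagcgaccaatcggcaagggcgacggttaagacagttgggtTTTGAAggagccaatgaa
Top2a, chr11:99024190-99024349, minus strand: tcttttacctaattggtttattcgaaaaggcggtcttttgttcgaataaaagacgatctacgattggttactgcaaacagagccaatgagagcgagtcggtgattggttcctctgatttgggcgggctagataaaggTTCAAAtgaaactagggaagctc
Mki67, chr7:135716380-135716539, minus strand: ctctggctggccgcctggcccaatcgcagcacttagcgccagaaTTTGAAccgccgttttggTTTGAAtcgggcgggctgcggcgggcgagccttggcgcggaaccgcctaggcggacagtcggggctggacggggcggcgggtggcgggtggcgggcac
In Mcm5 and in Mcm6, E2F matches on opposite strands overlap and form a single run of capitals, and Mcm6 holds another nearer to its start. The printed stretch of Ccne1 held none of these letters, and neither did the whole of its 300-base window. An E2F match was found in 9 of 18 windows (50.0%) of E-type cyclins, pocket proteins, E2F factors, MCM subunits and licensing factors, against 2.26% of 32851 promoters of the same length. None of 7 windows of the B-type cyclin, mitotic regulators and proliferation-associated genes held one. CHR letters were present in 6 of those 7 windows (85.7%) and in 5 of the 18 (27.8%), against 17.9% of all promoters. CCAAT was present in all 7, in 11 of the 18 (61.1%) and in 37.4% of all promoters. Cdk1, grouped with the kinases, is in neither set, and its window holds 1 E2F match and 2 CHR matches. A match is a run of letters and was not tested as a binding site.

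At the brightest probe sets, no member passed the test in either direction. Among all genes, 0.797% passed as higher and 1.45% as lower. By the same limma fit 3 members had an unadjusted p under 0.05 and were higher, and 7 were lower, where the shares of all genes were 7.6% and 9.6%. The lowest adjusted p of a member was 0.112, for Rbl2. The median difference over the 47 members was -0.06, against 0.02 over all genes, and 22 members were positive and 25 negative. Most differences were small: 38 members lay under 0.5 log2 units in size, and for 37 the 95% interval lay wholly between -1 and 1. In 10 members the interval did not include 0. A member that did not pass is not thereby shown to be unaltered. The count depends on how arrays are weighted: with limma's array weights, which also raised the calls over all probe sets to 3579 higher and 3595 lower, 2 members passed as higher and 8 as lower.

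For 13 members no array of either group fell within the range of the other. In 9 of these, or 19.1% of members, signals lay lower in the differentiating cells (Ccnd3, Ccne1, Rbl2, E2f2, E2f8, Mcm2, Mcm3, Mcm4 and Mcm5). The share of all genes was 12.8%, and it was 17.6% among genes brighter than the median probe set, where 45 of the 47 members lie. The other 4, or 8.51%, lay higher (Cdk1, Plk1, Aurkb and Top2a), against 10.7% of all genes and 11.1% of the brighter ones. Both shares are near their background. Without undifferentiated replicate 1, 11 members lay lower (23.4%, all genes 18.4%) and 5 higher (10.6%, all genes 18.7%).

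**Figure D1:**
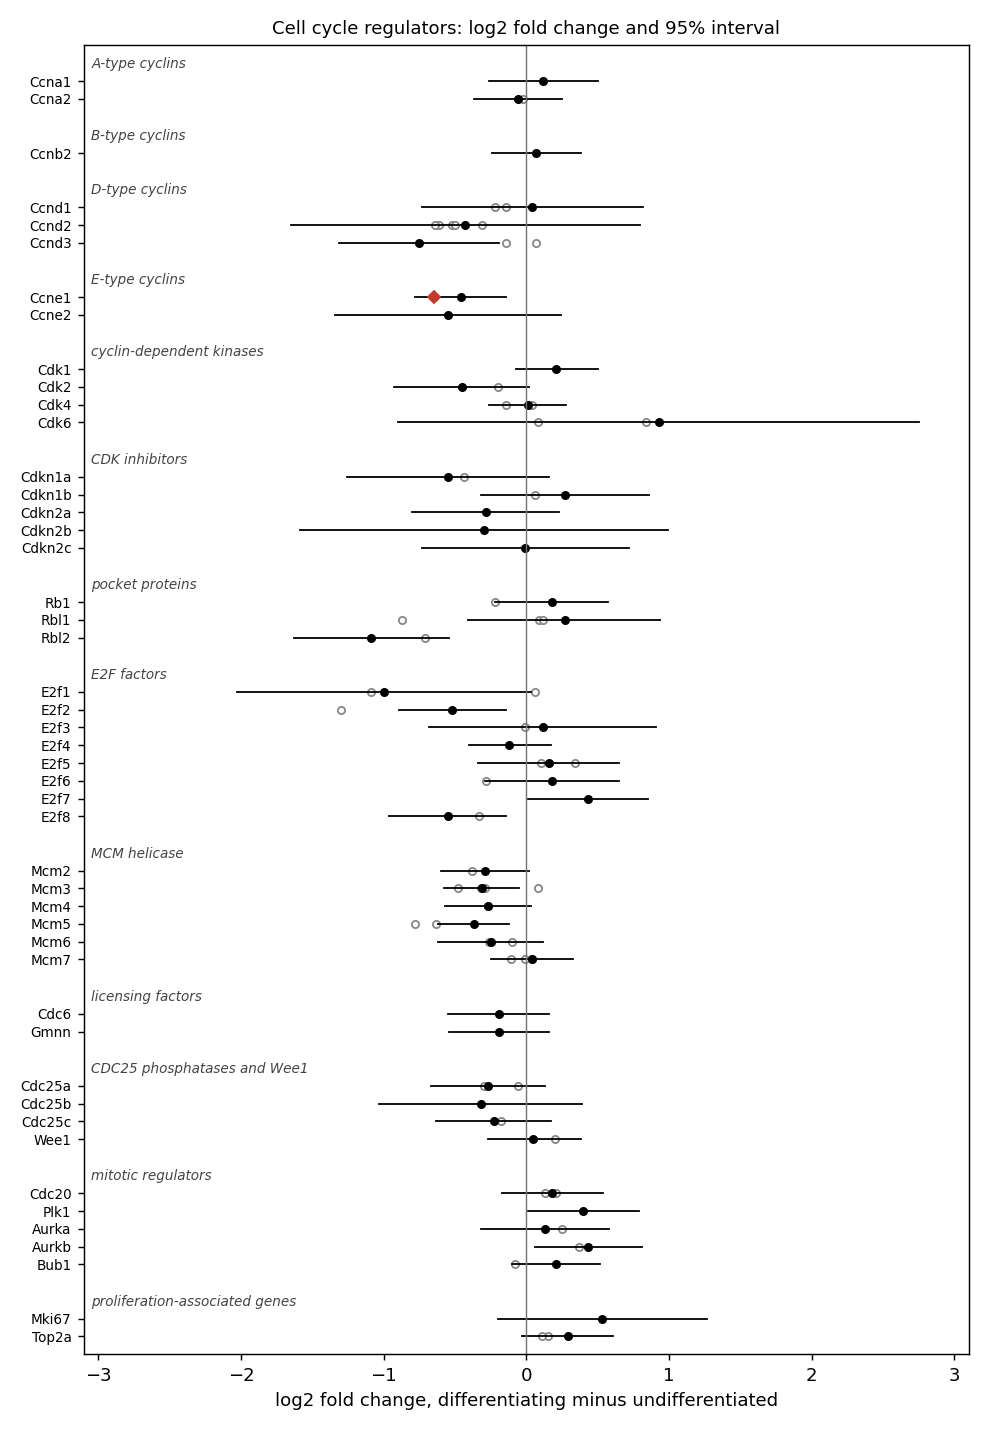
The horizontal axis gives the log2 fold change, differentiating minus undifferentiated, and each row is a member grouped by role, with a black point for the brightest probe set and its 95% interval from limma. Grey circles are the member's other probe sets and the red diamond is the only one with an adjusted p under 0.1, the second probe set of Ccne1 at -0.65. Among the black points Rbl2 and E2f1 lie farthest to the left at -1.09 and -1.0, and Cdk6 has the widest interval.

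Of the E-type cyclins, which activate Cdk2 at the G1/S transition, Ccne1 fell at 1 of its 2 probe sets. At the second brightest, the signals were 9.21, 9.50 and 9.27 in differentiating replicates 1 to 3 and 10.08, 9.88 and 9.96 in undifferentiated replicates 1 to 3. Every undifferentiated array was above every differentiating array, and replicates lay close together. The difference was -0.65 (SE 0.13, adjusted p = 0.0956 from limma), or 1.57-fold lower, and it was the only one of the members' 103 probe sets to pass. Over all probe sets 1.03% passed as lower and 0.573% as higher, and 1.87% of genes passed as lower and 1.06% as higher at any of their probe sets. The brightest probe set read 9.77, 10.01 and 10.05 against 10.55, 10.26 and 10.39. These groups did not overlap either, at -0.46 (SE 0.14, adjusted p = 0.210). The call of the second probe set is marginal, since leaving out any of the 6 arrays moved its adjusted p to between 0.103 and 0.346.

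For Ccne2, the partner of Ccne1 at the same step, the signals were 6.30, 6.91 and 7.72 against 7.59, 7.66 and 7.33. Differentiating replicates 1 and 2 were low and replicate 3 was the highest of all, so the groups overlapped. The difference was -0.55 (SE 0.34, adjusted p = 0.542), and ran from -0.92 without differentiating replicate 3 to -0.21 without differentiating replicate 1. Cdk2, the kinase of both E cyclins, had a difference of -0.45 (SE 0.20, adjusted p = 0.389), or -0.27 without undifferentiated replicate 1.

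The D-type cyclins couple growth factor signals to Cdk4 and Cdk6, and none of the 3 passed (1 lower at an unadjusted p under 0.05). Ccnd1 gave 9.94, 10.43 and 10.37 in the differentiating and 9.46, 10.70 and 10.47 in the undifferentiated replicates. Undifferentiated replicate 1 was the lowest and replicate 2 the highest of all, and the groups overlapped, with a difference of 0.04 (SE 0.33, adjusted p = 0.972). Without undifferentiated replicate 1 the difference was -0.33 (SE 0.19, adjusted p = 0.494). The other Ccnd1 probe sets overlapped between groups, at -0.14 and -0.22. Without that array they were at -0.39 and -0.37 (adjusted p = 0.308 and 0.242). All Ccnd1 probe sets then lay lower without overlap, as did 18.4% of all genes.

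Ccnd2 was the most variable of the D-type cyclins. Its signals were 9.09, 7.81 and 8.04 against 7.69, 9.06 and 9.47, so that a replicate 1 array of each group went against its fellows. The difference was -0.43 (SE 0.52, adjusted p = 0.774), and all 7 probe sets of the gene had negative differences. Without undifferentiated replicate 1 it was -0.95 (SE 0.38, adjusted p = 0.329), and the dimmest of the 7 then passed (-1.08, SE 0.17, adjusted p = 0.0691). The mean signal of that probe set was low (percentile 22.2), and the array left out was its lowest. The other Ccnd2 probe sets did not pass then (adjusted p = 0.193 to 0.329).

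Ccnd3 read 9.53, 8.90 and 9.07 in the differentiating and 10.34, 9.65 and 9.77 in the undifferentiated samples. All differentiating arrays lay below all undifferentiated ones, and replicate 1 was the highest in both groups. The difference was -0.75 (SE 0.24, adjusted p = 0.237), while its other 2 probe sets were at -0.14 and 0.07.

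Of the G1 kinases, Cdk4 differed by 0.01 (SE 0.12, 95% interval -0.26 to 0.28), or by -0.04 without undifferentiated replicate 1. Cdk6 gave 9.77, 9.25 and 9.77 in the differentiating and 6.73, 10.00 and 9.28 in the undifferentiated arrays. A single array, undifferentiated replicate 1, was far under the other 5. The difference of 0.93 (SE 0.77, adjusted p = 0.661) became -0.04 (SE 0.27) without it, and a second Cdk6 probe set had the same low array. Cdk1, the mitotic kinase, read 12.05, 12.18 and 11.97 against 11.74, 11.88 and 11.94, with all differentiating arrays on top, and differed by 0.21 (SE 0.12, adjusted p = 0.503).

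None of the 5 CDK inhibitors passed (0 at an unadjusted p under 0.05). Cdkn1a encodes p21, the inhibitor induced by p53, and read 9.06, 8.24 and 8.52 against 9.72, 8.97 and 8.79. Undifferentiated replicate 1 was the highest and the groups overlapped, at -0.55 (SE 0.30, adjusted p = 0.491). Its second probe set was at -0.44, and without that array both probe sets were at -0.27.

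Cdkn1b encodes p27 and gave 7.67, 8.03 and 8.29 against 8.15, 7.32 and 7.71. The groups were interleaved, with a difference of 0.27 (SE 0.25, adjusted p = 0.695), or 0.48 without undifferentiated replicate 1. The INK4 genes, whose products bind Cdk4 and Cdk6, follow. Cdkn2a, dimmer than most probe sets, was 4.92, 4.23 and 4.28 against 4.87, 4.90 and 4.50, a difference of -0.28 (SE 0.22, adjusted p = 0.631).

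Cdkn2b read 7.09, 6.40 and 6.82 against 6.24, 8.41 and 6.56, where undifferentiated replicate 2 alone was high. Its difference of -0.30 (SE 0.54, adjusted p = 0.856) became 0.37 without that array and -0.72 without undifferentiated replicate 1. Cdkn2c was 6.44, 6.03 and 5.79 against 6.73, 5.92 and 5.63, a difference of -0.01 (SE 0.31, adjusted p = 0.996), or 0.31 without undifferentiated replicate 1. In both groups its replicate 1 was highest and its replicate 3 lowest.

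**Figure D2:**
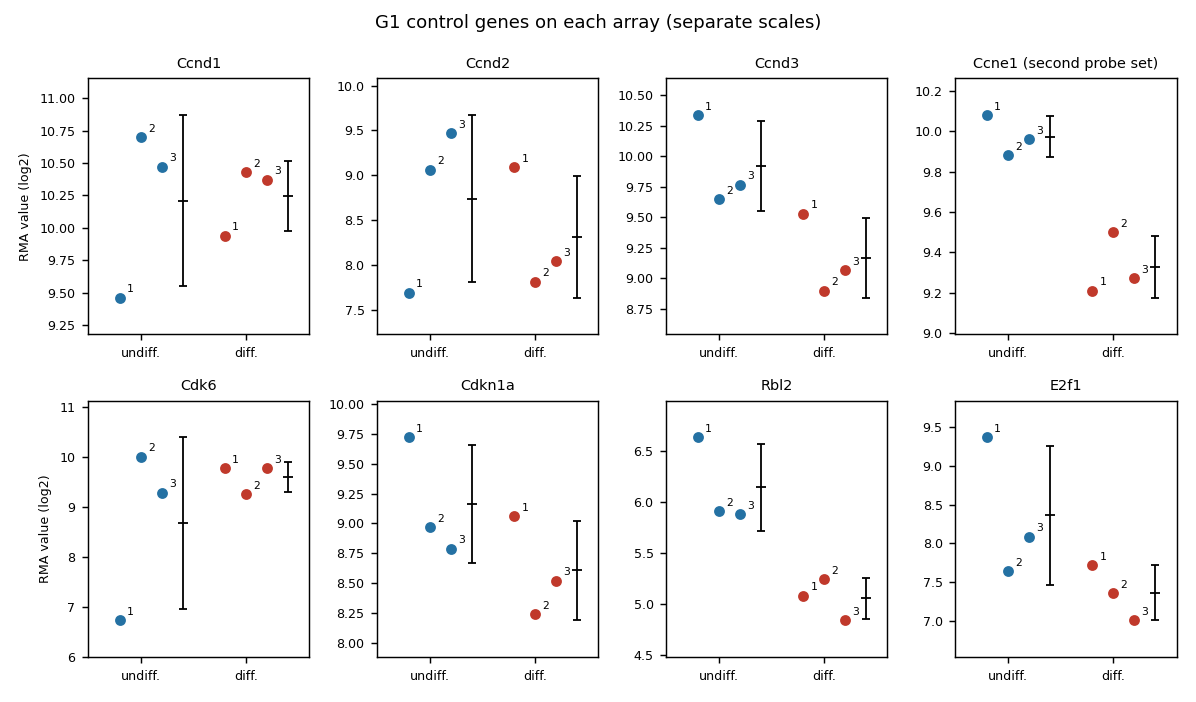
Each panel plots the log2 RMA value of a G1 control gene on the 6 arrays, numbered by replicate, with blue points for undifferentiated and red for differentiating samples, and a bar for the mean with 1 SD (n = 3), each on its own scale. Ccnd3, the second Ccne1 probe set and Rbl2 show no overlap between groups. Undifferentiated replicate 1 is the lowest array for Ccnd1, Ccnd2 and Cdk6. It is the highest for Ccnd3, the second Ccne1 probe set, Cdkn1a, Rbl2 and E2f1.

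Among the pocket proteins, Rbl2 (p130, the family member that binds E2f4 and E2f5 in resting cells) had the largest difference of all members. It read 5.08, 5.24 and 4.84 in the differentiating and 6.63, 5.91 and 5.88 in the undifferentiated samples. The groups were well apart, with undifferentiated replicate 1 highest. The mean signal of Rbl2 lay near the middle of all probe sets (percentile 50.2), and that of a second probe set was lower (percentile 35.3). The difference was -1.09 (SE 0.23, adjusted p = 0.112), or 2.12-fold lower, and the second probe set lay at -0.71 (SE 0.26, adjusted p = 0.304), also without overlap, or at -0.40 without undifferentiated replicate 1. The brightest probe set passed without undifferentiated replicate 1 (-0.84, SE 0.15, adjusted p = 0.0932) and without undifferentiated replicate 2 (-1.20). It also passed when the dimmer probe sets were not tested (adjusted p = 0.0937). Its mean cleared that filter only through the undifferentiated arrays, so that pass adds no support.

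Rb1, the retinoblastoma protein, was 7.98, 8.37 and 8.53 against 8.0, 8.12 and 8.22. The groups overlapped, with a difference of 0.18 (SE 0.17, adjusted p = 0.702). A second, dimmer probe set was at -0.22 without overlap, or -0.09 without undifferentiated replicate 1. Rbl1 (p107) read 7.95, 8.21 and 8.13 against 7.19, 7.92 and 8.38, a difference of 0.27 (SE 0.29, adjusted p = 0.742). Its probe sets disagree, since the second brightest lay at -0.87 (SE 0.45, adjusted p = 0.466), and undifferentiated replicate 1 was the lowest array at the first and the highest at the second. Without that array they were at -0.05 and -0.33.

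The E2F factors comprise the activators E2f1 to E2f3, the repressors E2f4 to E2f6 and the atypical repressors E2f7 and E2f8. E2f1 gave 7.72, 7.36 and 7.01 in the differentiating and 9.37, 7.64 and 8.09 in the undifferentiated samples. Undifferentiated replicate 1 was far above the rest, and replicate 2 lay within the differentiating range. The difference was -1.0 (SE 0.43, adjusted p = 0.379), or -0.50 (SE 0.24) without undifferentiated replicate 1. A second probe set did not overlap between groups, at -1.09 (SE 0.37, adjusted p = 0.261), or -0.69 without that array.

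E2f2 read 6.50, 6.18 and 6.23 against 6.97, 6.56 and 6.94. All differentiating arrays were below all undifferentiated ones, by -0.52 (SE 0.16, adjusted p = 0.226), and at the second probe set by -1.30 (SE 0.32, adjusted p = 0.150). For E2f3 the signals were 8.53, 9.07 and 9.34 against 8.16, 9.19 and 9.23, with overlap and a difference of 0.12 (SE 0.34, adjusted p = 0.917), or -0.23 without undifferentiated replicate 1. E2f4, E2f5 and E2f6 were at -0.12, 0.16 and 0.18, and without that array at -0.06, 0.20 and -0.02.

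The atypical pair went apart in their values. E2f8 was 7.83, 7.94 and 7.73 against 8.03, 8.52 and 8.60, without overlap, at -0.55 (SE 0.17, adjusted p = 0.237). A second probe set overlapped between groups, at -0.33 (SE 0.19, adjusted p = 0.511). When undifferentiated replicate 1 was left out, the brightest passed (-0.73, SE 0.13, adjusted p = 0.087). The second then did not overlap, at -0.54 (adjusted p = 0.119). E2f7 had a difference of 0.43 (SE 0.18, adjusted p = 0.352), and its groups overlapped.

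The MCM proteins form the ring helicase that is loaded at replication origins in G1. Of the 6 subunit genes 5 had negative differences, of -0.25 to -0.37, and Mcm7 was at 0.04, while none passed (2 lower at an unadjusted p under 0.05). Mcm5 read 11.90, 11.82 and 11.82 in the differentiating and 12.27, 12.13 and 12.24 in the undifferentiated samples. The groups were clearly apart and each was tight. The difference was -0.37 (SE 0.11, adjusted p = 0.203), and its other probe sets lay at -0.63 and -0.78, or -0.47 and -0.33 without undifferentiated replicate 1.

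Mcm3 was 11.11, 11.22 and 11.10 against 11.53, 11.35 and 11.50, again without overlap, at -0.31 (SE 0.11, adjusted p = 0.284). Of its 5 probe sets 4 had no overlap between groups, and the dimmest was at 0.08. Mcm2 and Mcm4 did not overlap either, at -0.29 and -0.27, whereas Mcm6 did at -0.25. The Mcm2 groups nearly met, at 11.66 and 11.67, and its second probe set did not overlap, at -0.38. The second Mcm4 probe set did overlap, at -0.27 (SE 0.17, adjusted p = 0.569). The mean over the 6 genes on each array was 11.91, 11.94 and 11.82 in the differentiating and 12.23, 12.01 and 12.15 in the undifferentiated samples. Undifferentiated replicate 1 was the highest array for 5 of the 6 genes, and without it all 6 differences were negative, from -0.34 for Mcm5 to -0.01 for Mcm7, with Mcm4 at -0.17 and Mcm6 at -0.12.

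The licensing factor Cdc6, which loads the MCM ring, gave 10.16, 10.25 and 10.34 against 10.73, 10.35 and 10.26. Geminin (Gmnn), which blocks reloading, gave 11.45, 11.53 and 11.46 against 11.92, 11.42 and 11.67. In both genes undifferentiated replicate 1 was the highest array and the groups overlapped. Each had a difference of -0.19 (SE 0.15, adjusted p = 0.636), and without that array -0.06 for Cdc6 and -0.07 for Gmnn.

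The A-type cyclins act in S phase and at mitotic entry, and the B-type cyclins drive mitosis with Cdk1. Ccna2 differed by -0.06 (95% interval -0.37 to 0.25) and Ccnb2 by 0.07 (-0.24 to 0.38), or by -0.16 and 0.16 without undifferentiated replicate 1. Ccnb2 read 11.67, 11.79 and 11.57 against 11.79, 11.47 and 11.58, with the groups interleaved. Ccna1, a cyclin of the male germ line, was 3.95, 4.22 and 3.93 against 4.19, 3.79 and 3.76, dimmer than most probe sets, and differed by 0.12 (SE 0.16, adjusted p = 0.795), or by 0.26 without that array.

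The CDC25 phosphatases remove the inhibitory phosphate that Wee1 places on CDKs. Cdc25a, Cdc25b and Cdc25c lay between -0.32 and -0.23 and Wee1 at 0.05. Cdc25b read 6.87, 7.45 and 6.92 against 8.02, 6.95 and 7.23, where undifferentiated replicate 1 was again highest. Its difference of -0.32 (SE 0.30, adjusted p = 0.700) was -0.01 without that array, where Cdc25a lay at -0.10, Cdc25c at -0.26 and Wee1 at -0.01.

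All 5 mitotic regulators had positive differences, of 0.13 to 0.43, and none passed (2 higher at an unadjusted p under 0.05). Aurkb, the kinase of the chromosomal passenger complex, gave 9.10, 9.49 and 9.19 against 8.87, 8.62 and 8.99. Every differentiating array was above every undifferentiated array, by 0.43 on average (SE 0.16, adjusted p = 0.290), and by 0.46 without undifferentiated replicate 1. A second Aurkb probe set overlapped between groups, at 0.37 (SE 0.15, adjusted p = 0.357). Plk1, a kinase of mitotic entry and spindle assembly, read 10.80, 10.88 and 10.82 against 10.10, 10.53 and 10.68.

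The Plk1 groups did not overlap, and the differentiating arrays were tighter than the undifferentiated ones. The difference was 0.40 (SE 0.16, adjusted p = 0.356), and 0.23 without undifferentiated replicate 1, the lowest array. Bub1, a spindle checkpoint kinase, Cdc20, the activator of the anaphase-promoting complex, and Aurka, the kinase of the spindle poles, were at 0.21, 0.18 and 0.13. Without undifferentiated replicate 1, Aurka was at -0.06, Cdc20 at 0.05 and Bub1 at 0.20, and 4 of the 5 stayed positive.

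Mki67, the Ki-67 antigen of cycling cells, read 11.15, 11.68 and 11.74 against 10.32, 11.27 and 11.38. Undifferentiated replicate 1 was low and the groups overlapped, at 0.53 (SE 0.31, adjusted p = 0.521), or 0.20 without it. Top2a, the topoisomerase that untangles chromosomes, read 12.89, 13.05 and 12.81 against 12.61, 12.46 and 12.80. The groups were just apart, at 0.29 (SE 0.13, adjusted p = 0.409), and at 0.28 without undifferentiated replicate 1. Its other probe sets overlapped between groups, at 0.15 and 0.11.

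**Figure D3:**
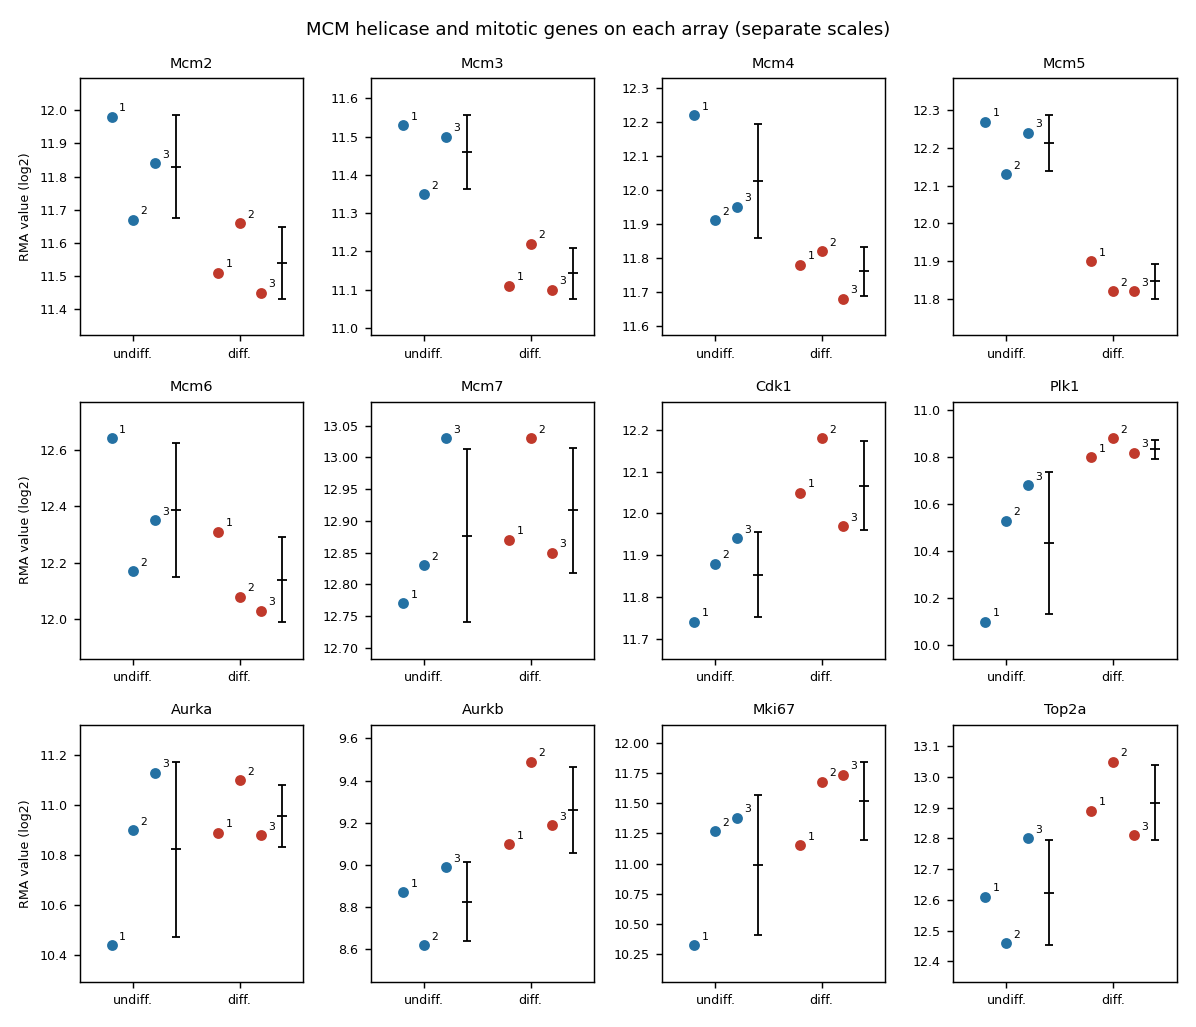
Each panel plots the log2 RMA value of an MCM subunit, a mitotic gene or a proliferation-associated gene on the 6 arrays, numbered by replicate, with blue points for undifferentiated and red for differentiating samples and a bar for the mean with 1 SD (n = 3), each on its own scale. Mcm2, Mcm3, Mcm4 and Mcm5 lie lower in the differentiating samples without overlap, and Cdk1, Plk1, Aurkb and Top2a lie higher without overlap, all by under 0.5 log2 units.

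**Figure D4:**
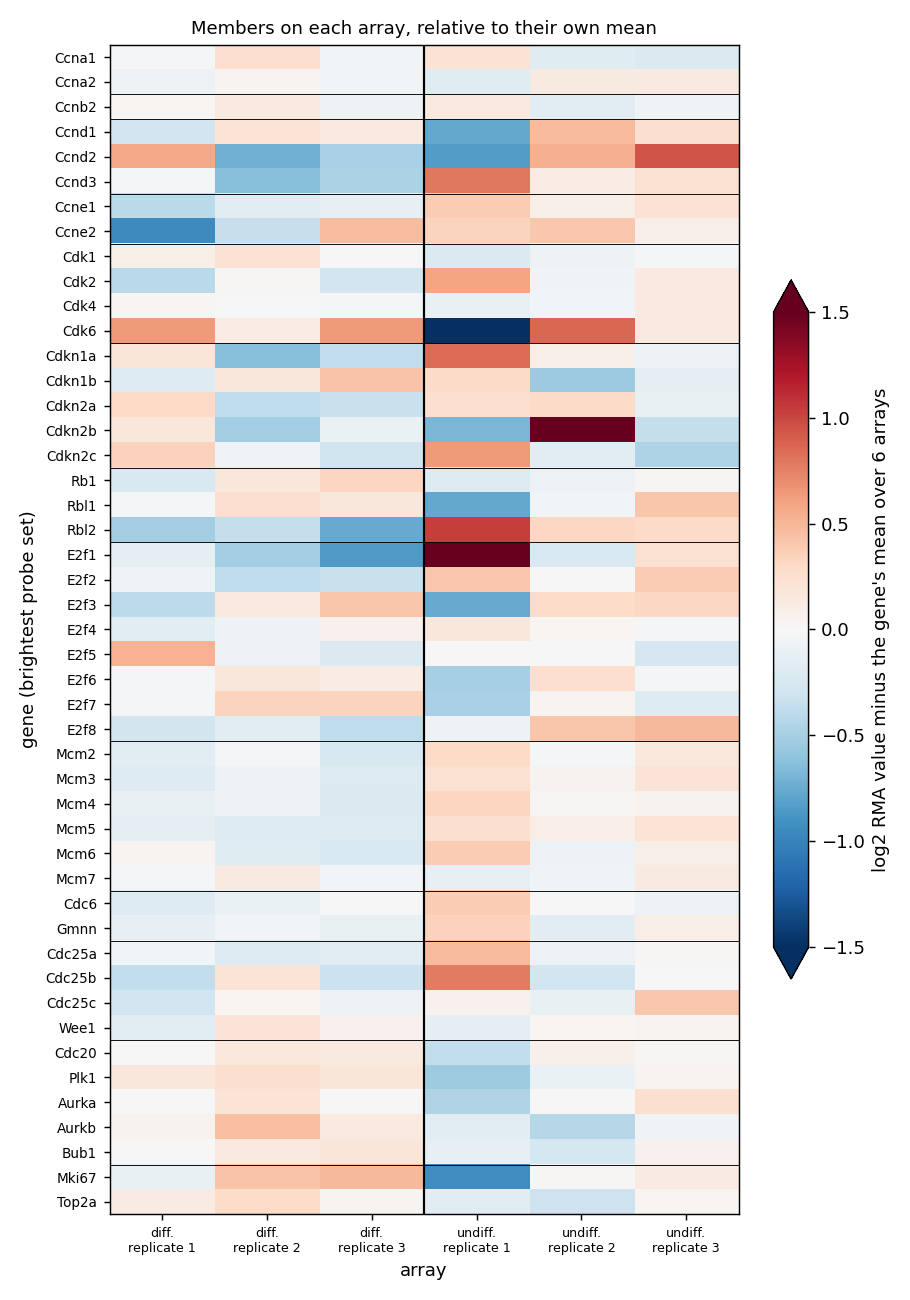
The heat map has a row for each of the 47 members and a column for each array, and the colour is the log2 RMA value minus the gene's mean over the 6 arrays, from blue (lower) to red (higher), with colours saturating at the ends of the scale. Undifferentiated replicate 1 carries the strongest colours, with the lowest value for 16 members such as Cdk6 and the highest for 18 such as E2f1, and the MCM rows are mostly bluer on the left.

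Beyond the 47 members, 80 of 82 listed genes of the same process were measured, of which 3 fell and none rose by the limma test (3 higher and 14 lower at an unadjusted p under 0.05). The 3 that fell are 3.75% of the list, against 1.45% of all genes, and at the unadjusted threshold 17.5% were lower and 3.75% higher, against 9.6% and 7.6%. The lists were chosen with earlier results of these data known, so these shares and those below are descriptions and not tests. Without undifferentiated replicate 1, 6 of the 80 passed as lower (Mybl2, Orc1, Gadd45g, Orc2, Gadd45a and Cdkn1c), and none as higher. Of all genes 1.44% then passed as lower and 0.627% as higher. Mybl2, the B-Myb factor that works with the MuvB complex on mitotic promoters, was 9.30, 9.04 and 8.53 in the differentiating and 10.42, 10.20 and 10.45 in the undifferentiated samples. It fell by 1.40 log2 units (SE 0.21, adjusted p = 0.0592), with the groups well apart. Orc1, the subunit of the origin recognition complex that varies through the cycle, was 9.27, 9.44 and 9.45 against 10.31, 10.08 and 10.30.

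Orc1 fell by 0.85 (SE 0.12, adjusted p = 0.059), and a second probe set of Orc1, one of Mybl2 and one of Orc2 also passed as lower. Gadd45g, a growth arrest and stress gene, was 6.45, 6.20 and 6.48 against 9.43, 8.40 and 7.63, low and even in the differentiating and spread in the undifferentiated arrays. It fell by 2.11 (SE 0.41, adjusted p = 0.0967). These 3 calls were lost when differentiating replicate 2 or 3 or the third undifferentiated array was left out, where adjusted p-values lay between 0.176 and 0.377, and that of Gadd45g also without differentiating replicate 1 or undifferentiated replicate 2 (0.160 and 0.114).

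Of 18 replication origin and fork factors 16 were negative, with a median of -0.39, and 9 (50%) lay lower without overlap, against 12.8% of all genes and 17.6% of the brighter ones. Without undifferentiated replicate 1, 15 were negative, with a median of -0.29, and 11 (61.1%) lay lower without overlap, against 18.4% of all genes. With all arrays Orc3 and Orc4 were positive, at 0.06 and 0.02, and Orc2 and Orc5 lay at -0.62 and -0.51. In the list of nucleotide supply all 4 measured genes were negative, and Rrm2, the ribonucleotide reductase subunit, and Tyms, thymidylate synthase, were at -0.42 and -0.40 (adjusted p = 0.208 and 0.378). The Tyms probe set was dimmer than most, at 4.72 to 5.57. The 24 spindle, kinetochore and cytokinesis genes had a median of -0.02 and none passed (0 at an unadjusted p under 0.05). Their largest values were 0.54 for Cenpf and 0.34 for Cenpe, kinetochore proteins whose undifferentiated replicate 1 was low, at 9.23 and 8.76, and without it they were at -0.02 and -0.23.

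Of the further CDK inhibitors, Cdkn1c (p57) was 7.25, 7.83 and 8.05 against 8.59, 9.13 and 9.09. The groups did not overlap, and at -1.22 (SE 0.24, adjusted p = 0.101) it did not pass, but it did without undifferentiated replicate 1 (-1.39, adjusted p = 0.0836). Cdkn2d lay at -0.52 (adjusted p = 0.506), or -0.18 without that array. Among 4 antiproliferative genes 2 differences were positive and 2 negative. Btg2 was at 0.63 (SE 0.15, adjusted p = 0.142) and Gas1 at 0.50 (SE 0.13, adjusted p = 0.164). Both lay higher without overlap in the differentiating samples, as did 10.7% of all genes. Tob1, at -0.49 (SE 0.24, adjusted p = 0.430), and Btg1, at -0.17, overlapped between groups. Without undifferentiated replicate 1 they were at -0.26 and 0.12.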

How the data were processed

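RNA of 6 E14TG2a samples (3 differentiating, 3 undifferentiated) was hybridised to Affymetrix mouse arrays. The deposited values are log2 signals of 45101 probe sets, which the authors computed with RMA (affy library, version not given in the sources used here). They were used as they are. Columns were matched to samples, and samples to groups, by the labels. Array controls (64 probe sets) were left out. Of the 45037 probe sets tested, 34945 carry 1 symbol in the platform annotation, 932 carry several and 9160 carry none there. All 47 measured members are also in the RefSeq gene table (GRCm38.p6). The members, the lists and the rules were chosen with earlier results of these data known.

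Groups were compared with lmFit and eBayes of limma 3.58.1 (R 4.3.3; all 6 arrays, no block), with Benjamini-Hochberg adjustment over all probe sets tested, and a probe set passed at an adjusted p under 0.1. The methods' second threshold, a log2 fold change of at least 1, was an alternative. The Ccne1 probe set that passed (-0.65) and Orc1 (-0.85) did not reach it, while Mybl2 and Gadd45g did. The steps were tested on simulated data with 200 changed probe sets. Of changes of 0.5 log2 units 0% were recovered, of 1 unit 31.5%, of 1.5 units 86.5% and of 2 units 92.5%. Most member differences were under 0.5, so not passing says little about them. Intervals are 95% intervals from the fit. The number of arrays limits the precision, and an exact permutation test of 3 against 3 cannot go under p = 0.1. Given in full are members that passed at any probe set, the members of largest difference in each role (1, or 2 in roles of 5 or more), and all D-type cyclins, CDK inhibitors, pocket proteins and E2f1 to E2f3. Other members are named by range, by lack of overlap, or after their values were seen. Of the other listed genes, those that passed are named, or the 2 of largest difference per list. Orc2 to Orc5, Gadd45a, Tob1 and Btg1 were named after their values were seen. Alternatives were each array left out, a replicate block, array weights, a robust variance with trend, centring on array medians, quantile normalization once more, control probe sets kept, dimmer ones left out, other thresholds and other ways to use several probe sets of a gene.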

Additional observations from a re-analysis of the deposited data

How the results depend on the processing

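With all arrays, 258 probe sets were higher and 462 lower. An adjusted p under 0.05 left 25 and 80, a required log2 difference of 1 or more left 148 and 276, and centring arrays on their median left 167 higher. Array weights gave 3579 higher and 3595 lower, with 2 members higher (E2f7 and Aurkb) and 8 lower (Ccnd2, Ccnd3, Ccne1, Cdkn1a, Rbl2, E2f2, E2f8 and Mcm5). These member counts stand without a share of all genes beside them. One member, a different one each time, was called lower with the replicate block (Ccnd3, adjusted p = 0.0957), without dimmer probe sets (Rbl2) and with the mean of a gene's probe sets (Ccne1, -0.55, adjusted p = 0.0873), and 1 (Ccne1) at any probe set. The block was not used otherwise, since same-numbered arrays did not deviate together (correlations 0.21, -0.11 and 0.11). It gave 265 higher and 388 lower probe sets, and the second Ccne1 probe set (adjusted p = 0.162) and Gadd45g (0.102) did not pass with it. That Ccne1 probe set was also lost with a second quantile normalization and with a trended robust variance (0.106 in each), and Gadd45g with the former (0.110).

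The median over members moved to -0.02 with a second quantile normalization, -0.10 with centring and -0.11 with means of probe sets. Leaving out 1 array gave 0 to 753 higher and 0 to 738 lower probe sets, with 0 of either without differentiating replicate 2 and the most without undifferentiated replicate 2. Members called lower then ranged from 0 to 2, members called higher stayed at 0, and the median ranged from -0.10 to -0.01.

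Of 703 member values under alternatives, 654 kept their direction and side of the threshold, 16 newly passed and 33, of 15 members, changed sign. With centring Cdk4 was at -0.03. With array weights Ccnd1 was at -0.04, Cdk4 at -0.05, Cdkn2c at 0.15 and Cdc25b at 0.12. With means of probe sets Ccnd1 was at -0.11, Cdk4 at -0.03, Rb1 at -0.02, Rbl1 at -0.10, E2f6 at -0.05 and Mcm7 at -0.01. With an array left out, the ranges that crossed 0 were -0.33 to 0.29 for Ccnd1, -0.01 to 0.16 for Ccnb2, -0.04 to 0.08 for Cdk4, -0.04 to 1.59 for Cdk6, -0.72 to 0.37 for Cdkn2b, -0.24 to 0.31 for Cdkn2c, -0.05 to 0.54 for Rbl1, -0.23 to 0.34 for E2f3, -0.06 to 0.30 for E2f5, -0.02 to 0.35 for E2f6, -0.02 to 0.11 for Mcm7, -0.02 to 0.15 for Wee1 and -0.06 to 0.28 for Aurka. The causes were not tested.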
